A study of Mus musculus with 5 samples.

Results

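The HMGB, HMGN and heterochromatin protein 1 (HP1) genes encode small, abundant proteins that bind chromatin. The 10 genes described here are Hmgb1, Hmgb2, Hmgb3, Hmgn1, Hmgn2, Hmgn3, Hmgn5, Cbx1, Cbx3 and Cbx5, taken by symbol from the 23234 genes of the deposited table. They were brought together because Hmgb2 and Cbx3 differed between the genotype groups. The differences between those groups are therefore given below as a description, with no test of the members. All 10 had an FPKM (fragments per kilobase of transcript, scaled to the mapped fragments of the library) of at least 1 in at least 2 libraries and are among the 10242 genes that were fitted.

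RNA was sequenced from NP-binding donor germinal centre light zone B cells, sorted from spleen on day 11 after immunization of C57BL/6J host mice with NP-CGG in alum. The 2 libraries labelled Csk(f/f) came from Csk(fl/fl) donor B cells, and the 3 libraries labelled Csk(+/+) from Csk(+/+) donor B cells. Donor cells of both groups were CD45.1/2 and carried the alleles B1-8hi(KI/+) and ERT2cre(KI/+). They were transferred as naive cells, and tamoxifen was given to both groups on days 8 and 9. Csk is the kinase that restrains Src family kinases, and the study addresses B cell receptor signalling in the selection of germinal centre B cells. ERT2cre is a Cre recombinase that tamoxifen activates, and it is carried by both groups. B1-8hi is a knock-in heavy chain that binds the hapten NP. The age of the animals is not given in the sources used here.

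HMGB proteins carry a pair of HMG boxes that bend DNA, and HMGB1 and HMGB2 assist the RAG recombinase in developing lymphocytes. HMGN proteins bind nucleosomes directly and compete there with linker histone H1. HP1 proteins read methylated histone H3 through a chromodomain and pair through a chromoshadow domain, which recruits partners to heterochromatin. Germinal centre B cells divide rapidly, and Hmgb2 is a gene whose transcript is abundant in cycling cells.

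Depth, estimated from the steps between low FPKM values, was 24.0 and 9.77 M fragments for the Csk(f/f)-labelled pair and 12.0 to 19.5 M fragments for the Csk(+/+) libraries. All 6 B cell markers, all 8 germinal centre markers in the table and all 8 light zone markers reached 1 FPKM in at least 2 libraries. Of the 8 T cell markers, Cd3e and Cd3g were listed at 0 in every library, while Cd8b1 and Thy1 reached 1 FPKM in at least 2. The 8 T cell markers summed to 4.61 and 5.52 FPKM in the Csk(f/f)-labelled pair and to 2.40 to 3.53 FPKM in the Csk(+/+) libraries. Csk had 453 and 476 FPKM in the Csk(f/f)-labelled pair, against 378, 436 and 415 FPKM in the Csk(+/+) libraries (limma adjusted p = 0.439). Both libraries labelled Csk(f/f) thus lay above every Csk(+/+) library, with a log2 difference of 0.18 ± 0.14 (SE), and no lower Csk level was seen. A value for the whole gene does not show whether single exons were lost. Which exons of Csk the deletion takes is not given in the sources used here. Csk(+/+) replicate 3 stood apart from the other libraries, with a limma library weight of 0.259, the others having 1.35 or more. Across the tested genes, log2 differences between the groups rose with the GC content of the transcript (Spearman rho 0.71 across 10119 genes, which are not independent replicates). A value with that trend subtracted from each library, called GC-corrected, is therefore given beside the difference of each member and the median of each gene list described by one.

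Every one of the 10 members had a lower mean in the libraries labelled Csk(f/f), on the log2(FPKM + 1) scale. A log2 difference below 0 was found in 51.3% of all tested genes, and in 49.8% after the GC correction, under which all 10 members also stayed negative. In 9 of the 10 members the libraries of the groups did not overlap, Hmgn3 being the exception, and 24.5% of all tested genes were lower in that way. After the GC correction 5 members were lower without overlap (Hmgb1, Hmgb2, Hmgn2, Cbx1 and Cbx3), against 13.9% of tested genes. The median log2 difference of the members was -0.69, beside -0.01 for all tested genes, and -0.43 after the GC correction, beside 0.00. By limma with Benjamini-Hochberg adjustment over all tested genes 0 members passed an adjusted p of 0.05, which 0.0781% of tested genes did in either direction, and 0 did after the GC correction, beside 0.0791%. At an unadjusted p under 0.05 there were 5 members (Hmgb1, Hmgb2, Cbx1, Cbx3 and Cbx5), beside 13.6% of tested genes called lower in that way, and 4 after the GC correction, beside 5.07%. Csk(+/+) replicate 3 decided the adjusted calls: without it the same 5 members passed an adjusted p of 0.05 by limma, with 2.79% of tested genes called lower, and with library weights they passed too, with 4.66% called lower. Without that library and with the GC correction 0 members passed, with 0.239% of tested genes called lower. Since the members were chosen from this contrast, nothing is read from these counts.

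**Figure D1:**
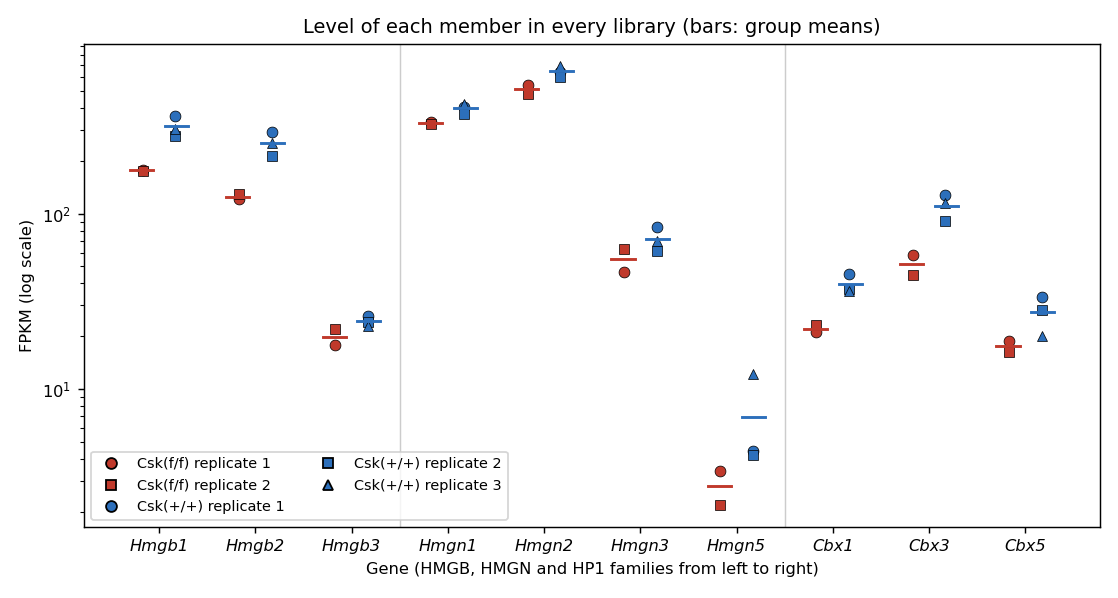
FPKM (log scale) of each member in the 2 libraries labelled Csk(f/f), left, and the 3 Csk(+/+) libraries, right, with a bar at each group mean. Cbx3 has 58.4 and 44.6 FPKM on the left against 91.3 to 128 on the right, while the libraries of Hmgn3 overlap.

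Among the HMGB genes, Hmgb1 and Hmgb2 were the abundant members, and both were lower in every library labelled Csk(f/f). Hmgb2, whose product is the HMGB protein tied most closely to proliferation, had 121 and 130 FPKM in the Csk(f/f)-labelled pair, against 293, 213 and 253 FPKM in the Csk(+/+) libraries. The Csk(f/f)-labelled pair averaged 125 ± 6.51 FPKM (SD, n = 2) and the Csk(+/+) libraries 253 ± 40.3 FPKM (SD, n = 3), a ratio of 0.494. The log2 difference was -1.0 ± 0.16 (SE), and -0.50 ± 0.18 after the GC correction. The lowest Csk(+/+) library, replicate 2, still lay well above both libraries labelled Csk(f/f).

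Hmgb1, which encodes the DNA-bending protein that dying or activated cells release as an alarm signal, had 176 and 176 FPKM in the Csk(f/f)-labelled pair, against 359, 278 and 306 FPKM in the Csk(+/+) libraries. The log2 difference was -0.82 ± 0.15 (SE), and -0.37 ± 0.15 after the GC correction. The order of the Csk(+/+) libraries was the same as for Hmgb2, with replicate 1 highest and replicate 2 lowest. Hmgb3, a paralog best known from stem and progenitor cells, had 17.7 and 22.0 FPKM in the Csk(f/f)-labelled pair, against 26.2, 24.2 and 23.0 FPKM in the Csk(+/+) libraries. Its groups did not overlap, but Csk(f/f) replicate 2 and Csk(+/+) replicate 3 were close. The log2 difference of Hmgb3 was -0.29 ± 0.15 (SE), and -0.15 ± 0.13 after the GC correction, which lets the groups overlap.

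Promoter windows are shown for the members with log2 differences of -0.81 or lower and more than 20 FPKM in every library, Hmgb1 and Hmgb2 here and Cbx1 and Cbx3 with the HP1 genes. They come from RefSeq on GRCm38.p6 and run from 250 bases before to 50 bases after the annotated start, 5′ to 3′ on the strand of the gene. The authors mapped to mm9, and the coordinates of the windows are those of GRCm38.p6. Capitals mark matches on either strand to CCAAT (the CCAAT box), GGGCGG (the GC box), TATAAA (the TATA box), TTTGAA or else TTTAAA (forms of the cell cycle homology region), and TTTCGCG or else TTTGGCG or else TTTCCCG (forms of the E2F element). Hmgb2 lies at chr8:57511593-57511892 on the plus strand, and the first Hmgb1 window at chr5:149053008-149053307 on the minus strand.
Hmgb2: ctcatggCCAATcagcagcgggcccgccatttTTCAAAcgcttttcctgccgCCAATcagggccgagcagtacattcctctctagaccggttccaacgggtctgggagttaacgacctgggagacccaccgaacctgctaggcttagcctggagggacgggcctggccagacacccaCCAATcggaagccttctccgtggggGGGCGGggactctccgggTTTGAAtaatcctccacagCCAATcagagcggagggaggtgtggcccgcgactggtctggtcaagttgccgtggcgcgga
Hmgb1: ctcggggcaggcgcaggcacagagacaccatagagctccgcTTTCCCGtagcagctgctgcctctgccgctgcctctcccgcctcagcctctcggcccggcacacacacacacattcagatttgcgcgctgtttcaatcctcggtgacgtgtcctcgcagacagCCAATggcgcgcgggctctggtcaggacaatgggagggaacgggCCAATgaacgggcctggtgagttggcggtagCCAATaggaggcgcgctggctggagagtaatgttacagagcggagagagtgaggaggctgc
Both windows held several CCAAT matches, 4 in Hmgb2 and 3 in Hmgb1, and each had 1 whose first base was at position -11, with the annotated start as position 0. Hmgb2 also held TTTGAA at position -30 and its reverse complement at position -218, and GGGCGG at -48. A CCAAT match was present in 37.4% of all 32851 windows, TTTGAA in 17.9% and GGGCGG in 35.7%. TATAAA was present in 13.6% of them, TTTAAA in 13.2% and TTTCCCG in 3.39%. No 2 matches overlapped in either window. Counting the first window of each of the 9 members that have one, 7 held CCAAT, 7 held GGGCGG, 2 held TTTGAA (Hmgb2 and Hmgb3) and 0 held TATAAA. In the same count 2 held TTTAAA (Hmgb3 and Hmgn2) and 1 held TTTCCCG (Hmgb1). The second window of Hmgb1 held 4 matches to GGGCGG and none to CCAAT. Hmgn3 had no window in the table used. A match is a string of letters and was not tested for binding.

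The 3 HP1 genes were lower together, Cbx3 by the most. Cbx3 encodes HP1 gamma, which is found on transcribed genes as well as in heterochromatin. It had 58.4 and 44.6 FPKM in the Csk(f/f)-labelled pair, against 128, 91.3 and 114 FPKM in the Csk(+/+) libraries. Its log2 difference of -1.09 ± 0.18 (SE) became -0.60 ± 0.14 after the GC correction. On both scales every library labelled Csk(f/f) was below every Csk(+/+) library. Only 0.644% of tested genes had a lower log2 difference than Cbx3, and 2.08% after the GC correction, which describes the choice of this gene and does not test it.

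Cbx1, which encodes HP1 beta, had 21.1 and 23.0 FPKM in the Csk(f/f)-labelled pair, against 45.6, 37.0 and 36.2 FPKM in the Csk(+/+) libraries. The log2 difference was -0.81 ± 0.15 (SE), and -0.53 ± 0.13 after the GC correction. The correction moved Cbx1 by 0.27 and Cbx3 by 0.50, the Cbx1 transcript having a GC content of 44.8% against 38.7% for Cbx3. Cbx5, which encodes HP1 alpha, the form most concentrated in heterochromatin, had 18.9 and 16.4 FPKM in the Csk(f/f)-labelled pair, against 33.5, 28.4 and 20.2 FPKM in the Csk(+/+) libraries. For Cbx5, Csk(+/+) replicate 3 came close to Csk(f/f) replicate 1. The log2 difference of Cbx5 was -0.58 ± 0.22 (SE), and -0.21 ± 0.19 after the GC correction, where the groups overlapped.

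The Cbx1 window lies at chr11:96788885-96789184 on the plus strand and the first Cbx3 window at chr6:51470366-51470665 on the plus strand, both on GRCm38.p6 and with capitals as above.
Cbx1: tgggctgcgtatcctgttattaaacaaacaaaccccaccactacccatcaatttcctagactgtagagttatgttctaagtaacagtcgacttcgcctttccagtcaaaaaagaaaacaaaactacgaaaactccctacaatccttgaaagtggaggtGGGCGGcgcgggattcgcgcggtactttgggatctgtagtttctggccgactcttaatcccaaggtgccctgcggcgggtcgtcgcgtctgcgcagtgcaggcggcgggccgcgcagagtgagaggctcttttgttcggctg
Cbx3: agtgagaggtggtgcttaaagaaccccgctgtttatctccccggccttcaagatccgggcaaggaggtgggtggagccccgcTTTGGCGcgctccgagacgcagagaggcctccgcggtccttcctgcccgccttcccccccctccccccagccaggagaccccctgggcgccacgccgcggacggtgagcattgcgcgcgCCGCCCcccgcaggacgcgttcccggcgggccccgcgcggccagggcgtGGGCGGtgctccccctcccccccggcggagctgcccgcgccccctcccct
Neither window held a CCAAT match, which both HMGB windows printed above did. The first window of Cbx5, the other HP1 gene, held the reverse complement of CCAAT at position -24. Cbx3 held TTTGGCG at position -168, a string found in 1.56% of all windows, and Cbx5 held it at position 7. The GC content was 75.3% in the Cbx3 window and 52.7% in the Cbx1 window, with a median of 52.7% over all windows. Cbx3 and Cbx5 start head to head with Hnrnpa2b1 and Hnrnpa1 in RefSeq, at distances of 722 and 545 bases, and both neighbours encode RNA-binding proteins of heterogeneous nuclear ribonucleoproteins. These neighbours fall under no rule for naming genes and were looked up after the values of the members were seen. Hnrnpa2b1 had 241 and 258 FPKM in the Csk(f/f)-labelled pair, against 491, 387 and 402 FPKM in the Csk(+/+) libraries (log2 difference -0.77 ± 0.15, limma adjusted p = 0.141, and -0.44 after the GC correction). Hnrnpa1 had 85.7 and 92.8 FPKM in the Csk(f/f)-labelled pair, against 130, 109 and 114 FPKM in the Csk(+/+) libraries (log2 difference -0.39 ± 0.13, limma adjusted p = 0.1801, and -0.0857 after the GC correction). Neither neighbour passed the threshold. The libraries of the groups did not overlap in either as deposited, as in 24.5% of all tested genes in that direction.

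Hmgn1 and Hmgn2 held the highest levels of the 10 members, and the log2 differences of Hmgn1, Hmgn2 and Hmgn3 lay between -0.38 and -0.27. Hmgn2, a nucleosome-binding protein gene and the most abundant member, had 543 and 479 FPKM in the Csk(f/f)-labelled pair, against 643, 601 and 695 FPKM in the Csk(+/+) libraries. Its log2 difference was -0.34 ± 0.15 (SE). The GC correction made this difference larger, at -0.54 ± 0.19, where it made that of each other member smaller. Hmgn2 was the 1 member with a transcript GC content above the median of tested genes, 54.2% beside 49.7%.

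Hmgn1, the closest relative of Hmgn2, had 335 and 324 FPKM in the Csk(f/f)-labelled pair, against 406, 371 and 419 FPKM in the Csk(+/+) libraries. The log2 difference was -0.27 ± 0.13 (SE), and -0.11 ± 0.16 after the GC correction, which is within its error. Hmgn3 had 46.8 and 63.0 FPKM in the Csk(f/f)-labelled pair, against 83.6, 60.9 and 69.8 FPKM in the Csk(+/+) libraries. Here Csk(f/f) replicate 2 exceeded Csk(+/+) replicate 2, so the groups overlapped. The log2 difference of Hmgn3 was -0.38 ± 0.19 (SE), and -0.08 ± 0.18 after the GC correction.

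Hmgn5, an X-linked HMGN gene whose product has a long acidic tail, was the scarce member, at 3.41 and 2.19 FPKM in the Csk(f/f)-labelled pair, against 4.46, 4.19 and 12.2 FPKM in the Csk(+/+) libraries. The high value of Csk(+/+) replicate 3 decided its mean. The log2 difference was -0.94 ± 0.41 (SE) with all libraries, -0.51 without Csk(+/+) replicate 3, and -0.06 without that library and with the GC correction. The value of Csk(f/f) replicate 2 rested on roughly 41.4 fragments, taking the longest annotated transcript.

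**Figure D2:**
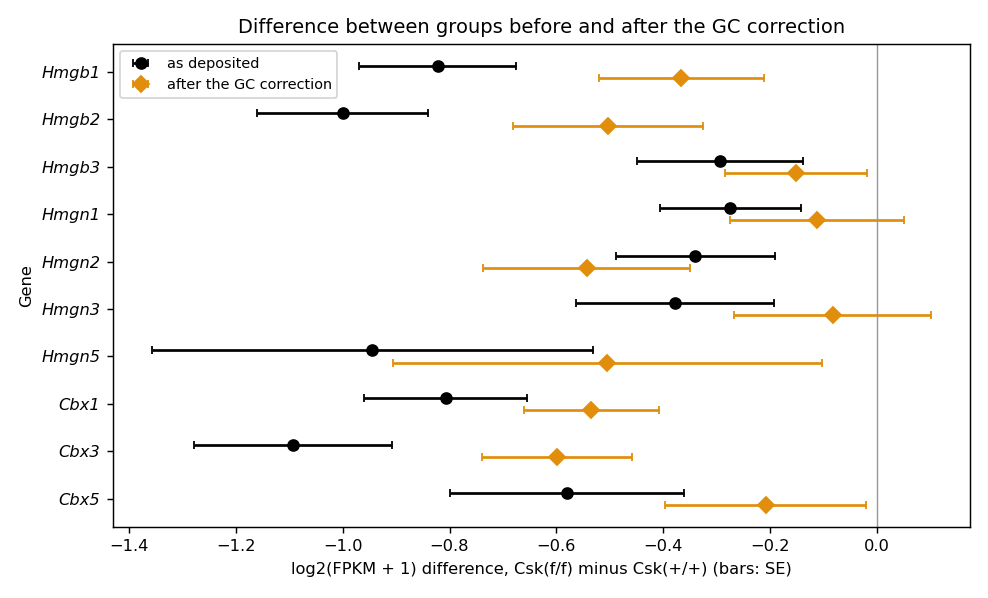
Log2(FPKM + 1) difference of each member, Csk(f/f)-labelled minus Csk(+/+) libraries, with its SE, as deposited (circles) and after the GC correction (diamonds). The diamonds lie nearer 0 for every member but Hmgn2, at -0.54 against -0.34 as deposited.

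Of the 10 members, 9 had a transcript GC content below the median of tested genes. Hmgb2 (38.7%) and Cbx3 (38.7%), the genes that led to this group, were the most AT-rich, and 2.75% and 2.86% of tested genes had a lower GC content. The subtraction moved the log2 difference of Hmgb2 by 0.50, of Cbx3 by 0.50, of Hmgb1 by 0.46 and of Hmgn5 by 0.44, and that of Hmgn2 by -0.20. It left all 10 differences negative, with family medians of -0.37 for HMGB, -0.31 for HMGN and -0.53 for HP1, where the medians as deposited were -0.82, -0.36 and -0.81. A subtraction of this kind removes any difference that runs with GC content, whatever its source, and the source was not tested.

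**Figure D3:**
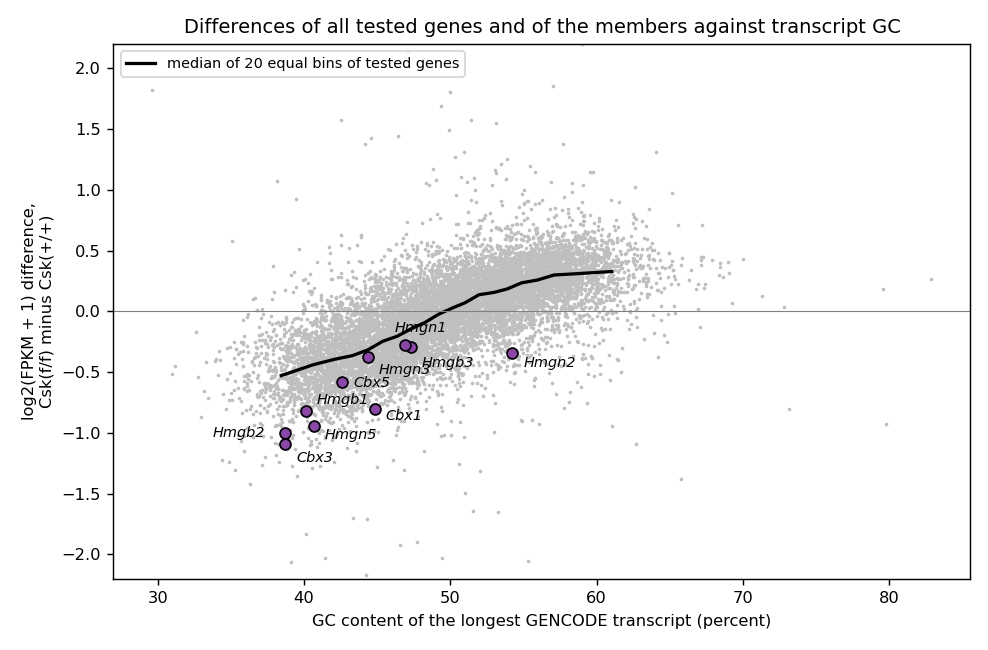
Log2(FPKM + 1) difference, Csk(f/f)-labelled minus Csk(+/+) libraries, against the GC content of the longest transcript, for tested genes (grey), the medians of 20 equal bins (line) and the members (purple); 37 tested genes beyond 2.2 in size lie outside the axis. Hmgb2 and Cbx3 sit at the AT-rich end (38.7% each) and Hmgn2 at 54.2%.

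The order of the levels, which the choice of members did not use, was nearly the same in all 5 libraries. From high to low mean log2(FPKM + 1) it ran Hmgn2, Hmgn1, Hmgb1, Hmgb2, Cbx3, Hmgn3, Cbx1, Cbx5, Hmgb3 and Hmgn5, with mean levels over the 5 libraries from 592 FPKM for Hmgn2 to 5.30 FPKM for Hmgn5. In 7 of the 9 neighbouring pairs the order held in 5 of 5 libraries. A two-sided exact sign-flip permutation test over the 5 libraries gave p = 0.0625 for each of those 7, the smallest p that it allows, and 0.0804 adjusted over the 9 pairs. Cbx3 exceeded Hmgn3 in 4 of 5 libraries (mean log2 level difference 0.34 ± 0.49, SD, n = 5, exact p = 0.188), the exception being Csk(f/f) replicate 2. Cbx5 and Hmgb3 could not be ordered, with a mean log2 level difference of 0.01 ± 0.30 (SD, n = 5, exact p = 0.938). Measured against all tested genes, 9 members had a level above the median, and Hmgn2 stood above 98.5% of them.

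Within a library, the share of a family taken by each gene does not depend on how libraries were scaled to each other. Hmgb2 made up 38.3% and 39.6% of the summed HMGB FPKM in the Csk(f/f)-labelled pair, against 43.3%, 41.3% and 43.5% in the Csk(+/+) libraries. The difference in the mean share of Hmgb2 was -3.76 percentage points, or -2.60 after the GC correction. Hmgb3 took 5.64% and 6.71% in the Csk(f/f)-labelled pair, against 3.86%, 4.71% and 3.95% in the Csk(+/+) libraries. The ratio of Hmgb2 to Hmgb1 was 0.684 and 0.737 in the Csk(f/f)-labelled pair, against 0.818, 0.766 and 0.828 in the Csk(+/+) libraries. Hmgb2 was thus lower relative to Hmgb1 as deposited. After the GC correction the log2 differences were -0.50 for Hmgb2 and -0.37 for Hmgb1. Because Hmgb2 and Cbx3 were chosen for differing between the groups, their shares and ratios are a description and test nothing.

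Cbx3 made up 59.3% and 53.1% of the summed HP1 FPKM in the Csk(f/f)-labelled pair, against 61.7%, 58.3% and 67.0% in the Csk(+/+) libraries, so these shares overlapped. Cbx5 took 19.2% and 19.5% in the Csk(f/f)-labelled pair, against 16.2%, 18.1% and 11.8% in the Csk(+/+) libraries. The Cbx5 shares did not overlap, and Csk(+/+) replicate 3 had the lowest. In the HMGN family Hmgn2 held 58.5% and 55.2% in the Csk(f/f)-labelled pair, against 56.6%, 57.9% and 58.1% in the Csk(+/+) libraries. The summed FPKM of the HMGB genes was 315 and 328 in the Csk(f/f)-labelled pair, against 678, 515 and 582 in the Csk(+/+) libraries. The summed HP1 FPKM was 98.5 and 84.0 in the Csk(f/f)-labelled pair, against 207, 157 and 171 in the Csk(+/+) libraries. Both sums were separated by group, and the summed HMGN FPKM was separated in the same direction. Of all tested genes, 24.5% were lower without overlap. The HMGB and HP1 sums hold Hmgb2 and Cbx3, which were chosen from this contrast, so their separation is a description only. The differences in mean share ranged as deposited from -6.13 percentage points for Cbx3 to 3.96 for Cbx5. The GC correction moved the HMGN shares most, to -7.35 points for Hmgn2, against -0.692 as deposited, and to 6.13 points for Hmgn1, against 1.19. Without Csk(f/f) replicate 1 the Cbx3 difference was -9.25 points, and without Csk(f/f) replicate 2 it was -3.01.

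**Figure D4:**
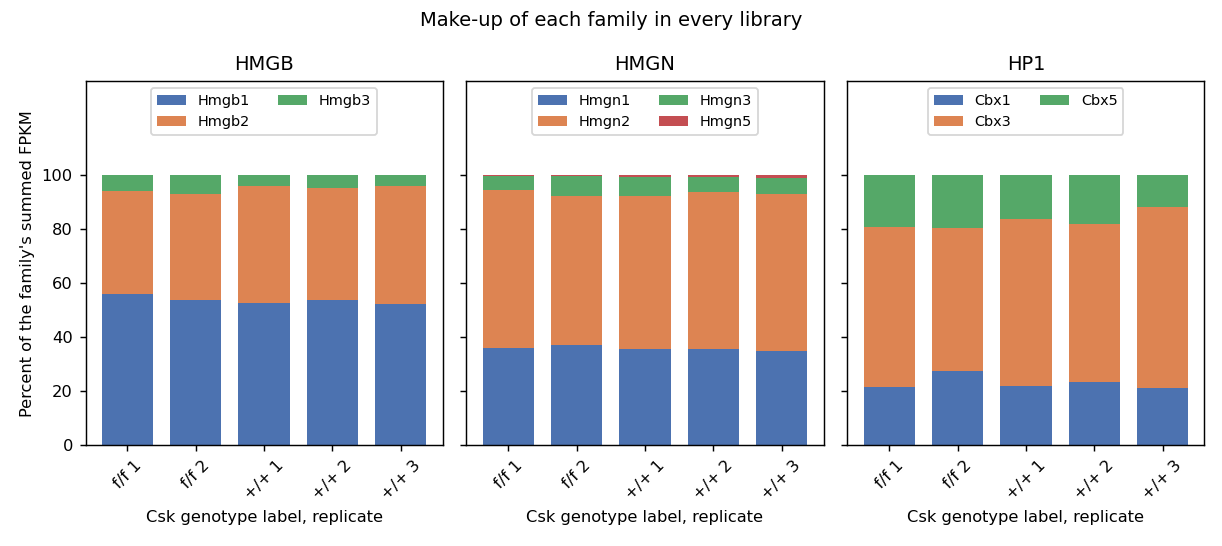
Share of each gene in the summed FPKM of its family (percent), per library, with the libraries labelled Csk(f/f) on the left and the Csk(+/+) libraries on the right. The Hmgb2 share is 38.3% and 39.6% on the left and 41.3% to 43.5% on the right.

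Sequence copies bear on the HMGB values. The row Hmgb1-rs17, named as a related sequence of Hmgb1, had 15.2 and 15.5 FPKM in the Csk(f/f)-labelled pair, against 32.6, 24.7 and 25.9 FPKM in the Csk(+/+) libraries. That was 8.61% and 8.80% of Hmgb1 in the Csk(f/f)-labelled pair, against 9.09%, 8.88% and 8.47% in the Csk(+/+) libraries, a nearly fixed share. How fragments that match several near-identical copies were divided is not given in the sources used here, so the values of Hmgb1 and its copy are uncertain to that extent. Hmgb4, a testis gene, was listed at 0 in all 5 libraries.

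The pattern over libraries of Hmgb2 was compared with that of 7398 tested genes with a mean of at least 5 FPKM, by the root mean square difference of log2(FPKM + 1) centred on each gene's mean. The 5 nearest genes over the 5 libraries were Fkbp3, a nuclear immunophilin gene (0.0655), 3110003A17Rik (0.0746), the co-chaperone gene Dnaja1 (0.0814), the deubiquitinase gene Uchl5 (0.0879) and Hmgb1 (0.101). Among the other members Cbx1 (0.130) ranked 17 and Cbx3 (0.163) ranked 49. The rest were far off, with Hmgn3 at rank 820, Cbx5 at 872, Hmgn2 at 1206, Hmgb3 at 1337, Hmgn1 at 1385 and Hmgn5 at 3140. The distance takes in the difference between the groups, for which Hmgb2 and Cbx3 were chosen, so these ranks are a description only. The genes nearest to Cbx3 were the small GTPase gene Rap1a (0.0550), the midbody gene Cep55 (0.0670), Ppwd1 (0.0765), the telomere protein gene Terf1 (0.0804) and Mns1 (0.0805). Fkbp3 had 32.3 and 37.9 FPKM in the Csk(f/f)-labelled pair, against 80.1, 59.4 and 64.7 FPKM in the Csk(+/+) libraries, and its transcript has a GC content of 38.3%. Rap1a had 59.0 and 44.6 FPKM in the Csk(f/f)-labelled pair, against 126, 92.1 and 126 FPKM in the Csk(+/+) libraries, with a GC content of 38.8%. The GC content of these 9 genes outside the members ran from 36.5% to 44.4%.

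**Figure D5:**
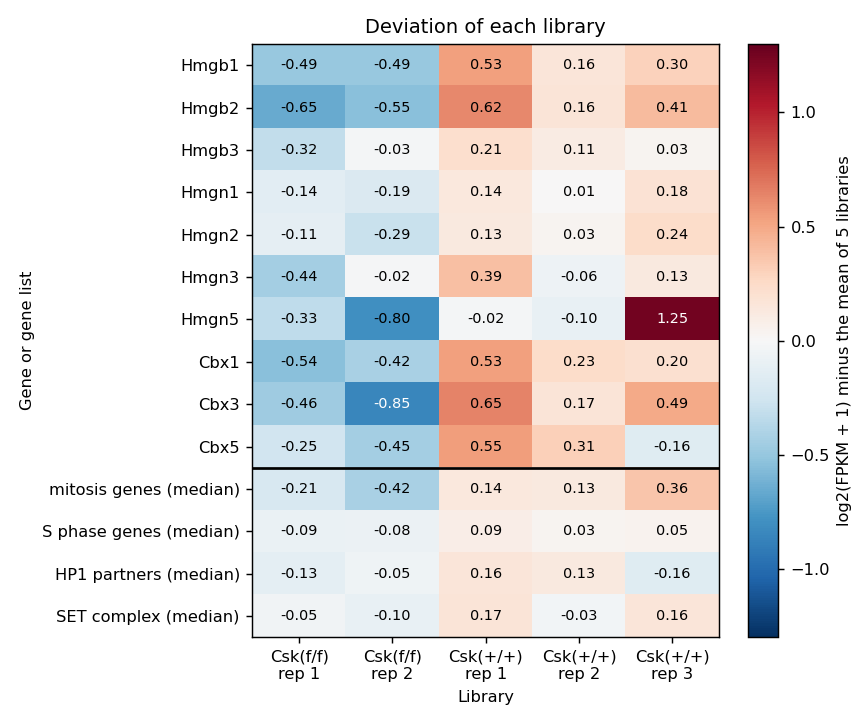
Deviation of log2(FPKM + 1) from the mean of the 5 libraries, for each member and for the median gene of 4 related lists, with the libraries labelled Csk(f/f) on the left. The members are negative in both of those libraries, and the mitosis genes likewise, at -0.21 and -0.42.

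Related genes were read from lists that the choice of members did not set, although the lists were written with earlier results of these data known. By limma over all tested genes 0 of the 121 tested genes in these lists passed the adjusted threshold, and at an unadjusted p under 0.05 5 were higher and 43 lower, beside 8.07% and 13.6% of all tested genes. After the GC correction 0 were past the adjusted threshold, and with an unadjusted p under 0.05 there were 27 lower genes and 0 higher ones, beside 5.07% of all tested genes called lower. Without Csk(+/+) replicate 3, 11 of them passed the adjusted threshold by limma, Hmga1 higher and Lbr, Wdhd1, Anp32a, Anp32b, Cd24a, Kif23, Prc1, Nuf2, Mcm4 and Slbp lower, beside 2.79% of all tested genes called lower in that setting. Without that library and with the GC correction 0 of them passed, beside 0.239%. Of the 24 HP1 partners, 16 had a negative log2 difference (median -0.20, and -0.13 after the GC correction), beside 51.3% of all tested genes. By limma at an unadjusted p under 0.05, 2 of the 24 were higher and 4 lower, beside 8.07% and 13.6% of all tested genes. After the GC correction 0 were higher and 4 lower, beside 5.07% of all tested genes called lower. Lbr, the lamin B receptor that anchors HP1 at the nuclear envelope, had 50.8 and 50.8 FPKM in the Csk(f/f)-labelled pair, against 87.3, 88.3 and 62.2 FPKM in the Csk(+/+) libraries (limma adjusted p = 0.161). Mis12, a kinetochore gene whose product meets HP1 at centromeres, had 9.09 and 6.01 FPKM in the Csk(f/f)-labelled pair, against 15.0, 12.0 and 12.0 FPKM in the Csk(+/+) libraries (limma adjusted p = 0.164). In both genes the libraries of the groups did not overlap, as in 24.5% of all tested genes in that direction, and the log2 differences of -0.61 for Lbr and -0.73 for Mis12 became -0.31 and -0.50 after the GC correction. The 5 Polycomb CBX genes, which share a chromodomain with HP1 but read another histone mark, had a negative log2 difference in 2 of 5, as deposited and after the GC correction. Cbx2 had 8.44 and 9.28 FPKM in the Csk(f/f)-labelled pair, against 6.97, 7.45 and 4.36 FPKM in the Csk(+/+) libraries (limma adjusted p = 0.285). Cbx7 had 19.4 and 21.4 FPKM in the Csk(f/f)-labelled pair, against 17.8, 18.1 and 11.5 FPKM in the Csk(+/+) libraries (limma adjusted p = 0.333). Both had higher means and GC-rich transcripts (57.6% and 56.4%). Cbx6 and Cbx8 lay between 7.80 and 13.5 FPKM, with limma adjusted p-values of 0.977 for Cbx6 and 0.732 for Cbx8.

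The SET complex, in which HMGB2 is a partner of SET and ANP32A, had 6 tested genes with a median log2 difference of -0.20, and -0.15 after the GC correction. By limma at an unadjusted p under 0.05, 1 was higher and 3 were lower, beside 8.07% and 13.6% of all tested genes. After the GC correction 0 were higher and 2 lower, beside 5.07% of all tested genes called lower. Anp32b, a histone chaperone gene, had 343 and 376 FPKM in the Csk(f/f)-labelled pair, against 592, 514 and 518 FPKM in the Csk(+/+) libraries (log2 difference -0.59 ± 0.14, limma adjusted p = 0.154). Its difference was -0.70 after the GC correction, its transcript having a GC content of 51.8%. Anp32a had 57.4 and 67.3 FPKM in the Csk(f/f)-labelled pair, against 105, 87.2 and 91.9 FPKM in the Csk(+/+) libraries (limma adjusted p = 0.154). Hmga1, the AT-hook member of the wider HMG group, went the other way, with 75.8 and 85.6 FPKM in the Csk(f/f)-labelled pair, against 53.3, 56.2 and 51.9 FPKM in the Csk(+/+) libraries (log2 difference 0.57 ± 0.12, limma adjusted p = 0.154). Its GC-corrected difference was 0.24, with a transcript GC content of 61.4%.

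Linker histone genes, whose products compete with HMGN proteins, had 5 tested members with a median log2 difference of 0.13, which turned to -0.13 after the GC correction. Hist1h1b had 0.577 and 0.612 FPKM in the Csk(f/f)-labelled pair, against 0.989, 1.90 and 3.47 FPKM in the Csk(+/+) libraries (limma adjusted p = 0.2005). It passed the filter of 1 FPKM only through Csk(+/+) replicates 2 and 3, in the group where it is higher. Its difference and its part in the median are therefore a description only. Hist1h1c had 3.99 and 5.04 FPKM in the Csk(f/f)-labelled pair, against 2.75, 3.96 and 3.94 FPKM in the Csk(+/+) libraries (limma adjusted p = 0.451). The 17 tested genes with other HMG boxes had a median log2 difference of -0.04, and 0.00 after the GC correction. Tfam, the mitochondrial HMG-box protein gene, had 10.4 and 11.8 FPKM in the Csk(f/f)-labelled pair, against 17.0, 16.5 and 14.0 FPKM in the Csk(+/+) libraries (limma adjusted p = 0.190). Tox, an HMG-box regulator of lymphocytes, had 11.2 and 13.3 FPKM in the Csk(f/f)-labelled pair, against 22.1, 14.9 and 17.0 FPKM in the Csk(+/+) libraries (limma adjusted p = 0.210). The 6 tested genes for receptors and surface partners of HMGB1 had a median log2 difference of -0.23, and 0.14 after the GC correction. Cd24a had 224 and 198 FPKM in the Csk(f/f)-labelled pair, against 328, 312 and 337 FPKM in the Csk(+/+) libraries (limma adjusted p = 0.152), and Tlr9 had 62.6 and 72.6 FPKM against 48.5, 53.8 and 36.2 FPKM in Csk(+/+) libraries (limma adjusted p = 0.1801).

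The mitosis genes had lower means, as the members had. All 30 genes of the mitosis list had a negative log2 difference (median -0.51, and -0.45 after the GC correction), beside 51.3% of all tested genes as deposited. By limma 21 of them were lower at an unadjusted p under 0.05, beside 13.6% of all tested genes, 17 after the GC correction, beside 5.07%, and 0 passed the adjusted threshold. Their summed FPKM was 778 to 875 in the Csk(f/f)-labelled pair and 1067 to 1219 in the Csk(+/+) libraries. Nuf2, a kinetochore gene, had 12.2 and 8.95 FPKM in the Csk(f/f)-labelled pair, against 24.4, 21.2 and 19.5 FPKM in the Csk(+/+) libraries, and Prc1, a cytokinesis gene, had 12.0 and 10.1 FPKM against 22.5, 19.9 and 19.3 FPKM in Csk(+/+) libraries (limma adjusted p = 0.132 for both). The 26 S phase genes had a median log2 difference of -0.10, and -0.13 after the GC correction. By limma 10 of them were lower and 0 higher at an unadjusted p under 0.05, beside 13.6% of all tested genes called lower, and 3 were lower after the GC correction, beside 5.07%. Mcm4, a replicative helicase subunit gene, had 48.0 and 43.4 FPKM in the Csk(f/f)-labelled pair, against 87.7, 72.9 and 73.8 FPKM in the Csk(+/+) libraries (limma adjusted p = 0.128). Hells, a chromatin remodeller gene, had 12.6 and 7.07 FPKM in the Csk(f/f)-labelled pair, against 19.6, 17.3 and 25.0 FPKM in the Csk(+/+) libraries (limma adjusted p = 0.154). In these bulk libraries fewer cycling cells and less RNA of such genes per cell cannot be told apart, and the part of the cell cycle in the member values was not tested.

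T cell and macrophage markers were low in all 5 libraries. The summed FPKM of the 8 T cell markers was 4.61 and 5.52 in the Csk(f/f)-labelled pair and 2.40 to 3.53 in the Csk(+/+) libraries, with 2 of the 8 tested. The 8 macrophage markers summed to 24.6 and 24.6 FPKM in the Csk(f/f)-labelled pair and to 12.2 to 21.5 FPKM in the Csk(+/+) libraries, with 2 of the 8 tested and Mertk at 0 throughout. The 8 naive and memory B cell markers summed to 458 and 512 FPKM in the Csk(f/f)-labelled pair and to 371 to 415 FPKM in the Csk(+/+) libraries, with 7 of the 8 tested. The 5 dark zone markers summed to 247 and 243 FPKM in the Csk(f/f)-labelled pair and to 268 to 286 FPKM in the Csk(+/+) libraries. The 8 light zone markers summed to 1064 and 1029 FPKM in the Csk(f/f)-labelled pair and to 914 to 967 FPKM in the Csk(+/+) libraries, and the 6 plasma cell markers to 156 and 142 FPKM against 123 to 127 FPKM. The 7 follicular dendritic and stromal cell markers summed to 4.15 and 4.11 FPKM in the Csk(f/f)-labelled pair and to 3.08 to 3.59 FPKM in the Csk(+/+) libraries, with Cxcl13 and Pdgfra at 0 throughout. The sums of these 7 lists did not overlap between the groups, 0 of their genes passed the adjusted threshold by limma, and their part in the member values was not tested. Of all tested genes, 24.5% were lower without overlap, as the dark zone sum was, and the share higher in that way is not given here. B cell marker sums overlapped, at 4348 and 4141 FPKM against 3152 to 4251 FPKM. The germinal centre B cell, dendritic cell and neutrophil sums also overlapped or met. The summed FPKM of the 6 erythroid markers ranged from 238 to 1251 over the libraries and overlapped between the groups.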

How the data were processed

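RNA-seq was measured in 5 libraries. The deposited values are FPKM per gene, which the authors made with TopHat2 2.0.8 and Cufflinks 2.1.1 on mm9, per the submitters' processing notes. The annotation, strand setting and any scaling between libraries are not given in the sources used here. Libraries were made with the NEBNext Ultra RNA kit from TRIzol RNA, per the labels' protocols. A repeat of the header within the table (1 line) was dropped.

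Genes with at least 1 FPKM in at least 2 libraries (10242) were fitted on log2(FPKM + 1) by linear models in limma 3.58.1 (R 4.3.3, trended prior, Benjamini-Hochberg adjustment), after the steps were tested on simulated data. Differences are Csk(f/f) minus Csk(+/+). Fold changes on this scale understate the change of low genes. GC content is that of the longest GENCODE M21 transcript, found for 98.8% of tested genes, and the correction subtracts each library's lowess trend (span 0.3). Depth was read from FPKM steps of transcripts of at least 1500 nt. Promoters are RefSeq's.

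Members, lists and alternatives were chosen with earlier results of these data known. Genes named are the members, from each list up to 4 genes past the threshold or else 2 with the smallest p, the 5 genes nearest to Hmgb2 and to Cbx3, and other Hmgb, Hmgn and Cbx rows, of which some results are not reported here. The design text calls the libraries biological replicates without naming animals, so p-values measure only the spread between these libraries. Alternatives changed the pseudocount, filter, scaling, prior, weights, replicate block and libraries.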

Additional observations from a re-analysis of the deposited data

How the results depend on the processing

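The 10 members (9 with a filter at 5 FPKM, which drops Hmgn5) kept a negative log2 difference under all 17 alternatives, and the same 7 pairs of levels kept their order in all 5 libraries under the other pseudocounts, both rescalings and the GC correction. The member median, -0.69 as described, was -0.53 with a pseudocount of 5, -0.43 with the GC correction, -0.39 with the replicate block and GC correction, -0.38 without Csk(+/+) replicate 3 with the GC correction, and -0.71 to -0.56 with 1 library left out. Genes past the threshold numbered 8 as described, 5 without a filter, 671 with library weights, 492 with the replicate block, 162 with the block and GC correction, 40 without Csk(+/+) replicate 3 with the GC correction, and 5 to 411 with 1 library left out, 411 being without Csk(+/+) replicate 3. The same 5 members (Hmgb1, Hmgb2, Cbx1, Cbx3 and Cbx5) passed with library weights, with the block, and without Csk(+/+) replicate 3, where 4.66%, 3.73% and 2.79% of tested genes were called lower. These settings all discount Csk(+/+) replicate 3 and are not separate checks. Only the Csk(+/+) group has a replicate 3, so the block gave the same member differences as leaving it out (-1.07 for Cbx3 in both). Cbx3 was the 1 member past the threshold with the block and GC correction (0.712% of genes called lower). Without Csk(+/+) replicate 3 and with the GC correction 0 members passed (0.239%), with 6 at an unadjusted p under 0.05 by limma. Of the related genes, 0 as described, 20 passed with library weights, 17 with the block, 1 with the block and GC correction (Anp32b), and 0 to 11 with 1 library left out. The cause was not tested.

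The replicate numbers are not stated to mark a shared day or animal. Deviations from the group mean of libraries with the same number correlated at -0.13 for replicate 1 and 0.11 for replicate 2. The deviations of the 2 Csk(f/f) libraries mirror each other. Csk(f/f) replicate 2 with Csk(+/+) replicate 1 thus gave 0.13, and Csk(f/f) replicate 1 with Csk(+/+) replicate 2 gave -0.11. These correlations cannot settle whether the numbers mark a pairing, and the numbers were not taken as one.

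Medians of related lists that turned sign were those of linker histones (-0.13 with the GC correction, -0.0227 with the replicate block and GC correction, -0.0284 without Csk(+/+) replicate 3 with the GC correction, and -0.0148 to 0.323 with 1 library left out, the lowest without Csk(+/+) replicate 2), HMGB1 receptors (0.0637 with a filter at 5 FPKM, 0.14 with the GC correction, 0.13 with the block and GC correction, 0.14 without Csk(+/+) replicate 3 with the GC correction), Polycomb CBX genes (-0.12 with the block and GC correction and -0.12 without Csk(+/+) replicate 3 with the GC correction) and other HMG-box genes (0.0512 with quantile normalization). Shares within a family that turned sign were those of Hmgn2 (-2.36 to 0.976 points with 1 library left out, positive without Csk(f/f) replicate 2), Hmgn3 (1.33 with the GC correction and -1.31 to 0.905 with 1 library left out, positive without Csk(f/f) replicate 1 and, at 0.295, without Csk(+/+) replicate 1) and Cbx1 (-0.326 with the GC correction and -0.815 to 5.15 with 1 library left out, negative without Csk(f/f) replicate 2).

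Depth limits Hmgn5 most, and a comparison of 2 with 3 libraries limits every difference.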
